A study of Mus musculus with 16 samples.

Results

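The Fos and Jun genes encode the subunits of the transcription factor AP-1. The 7 genes Jun, Junb, Jund, Fos, Fosb, Fosl1 and Fosl2 were taken by name, and every region of the authors' 2 lists that overlapped one of them or lay within 10 kb was counted. They were 7 of 21887 protein-coding genes on assembled chromosomes in the RefSeq gene table. Histone H3 carrying beta-hydroxybutyryl groups on lysine 9 (H3K9bhb) was immunoprecipitated and sequenced from occipital cortex. The mice were of the strain C57BL/6J and aged 35 days after birth. They had either gone without food for 48 hours or been fed ad libitum, and each feeding state had 4 ChIP and 4 input libraries. No genotype other than the strain is given in the labels. The deposited lists give 1 log likelihood ratio (log-LR) per region and nothing per library, so the depth behind each region is unknown, and no value per mouse, spread or test between mice could be given.

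AP-1 is a dimer of basic leucine zipper proteins. Jun proteins pair with each other or with Fos proteins, while Fos proteins need a Jun partner to bind DNA. In the cortex Fos, Fosb, Junb and Fosl2 are known as genes that neurons switch on after activity, Jun is also induced by stress through the JNK kinases, and Jund is expressed more steadily. Beta-hydroxybutyrylation is a histone mark whose acyl group comes from the ketone body that the liver releases during fasting.

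Fasting-enriched H3K9bhb was recorded at 4 of the 7 genes and at neither Fos nor Fosb. Jun held 2 regions, Junb had 3, Fosl2 had 2 and Fosl1 had 1, while Fos, Fosb and Jund had none (0) within 10 kb. Of all protein-coding genes 23.3% had such a region, and 19.1% of those within the members' length range of 1840 to 21369 bp. Only Jun and Junb, 2 of the 7, had regions inside the gene itself, against 16.4% of all protein-coding genes and 10.8% of those in that length range. The list of regions enriched in ad libitum mice held 1 region, on chromosome 3, where none of the 7 genes lies. A gene without a region may still carry the mark, since the lists hold only regions that differed between the feeding states.

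**Figure D1:**
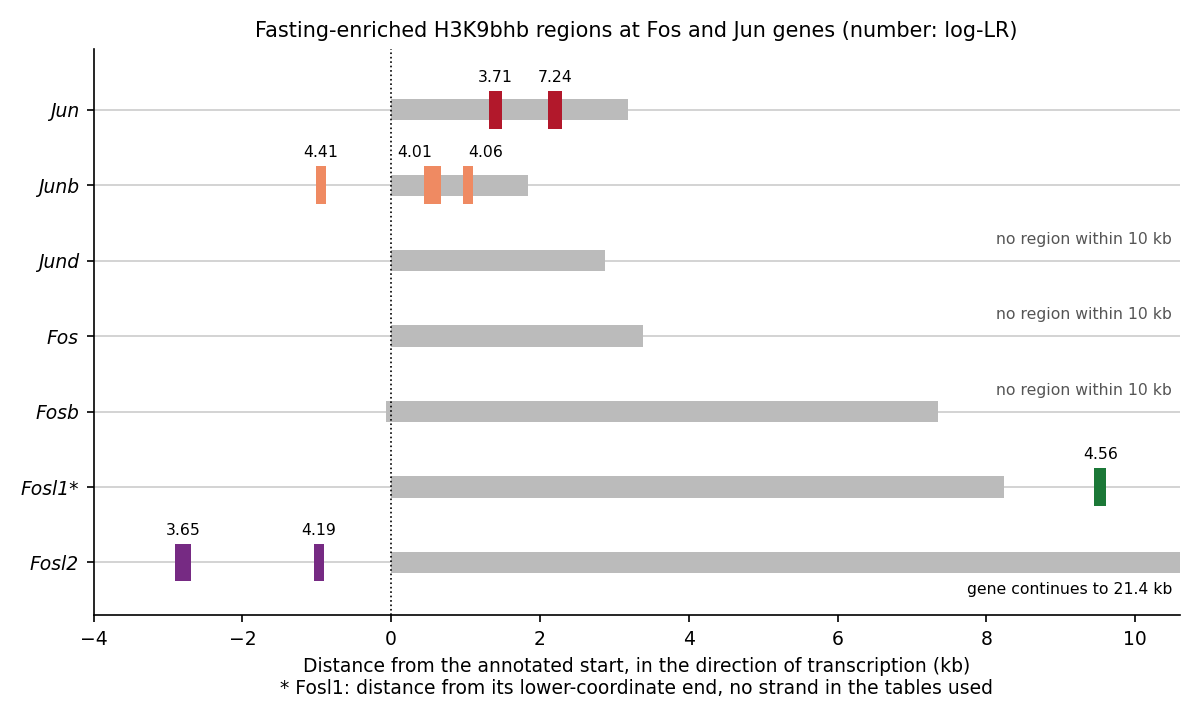
Map of the 7 genes, with the distance from the annotated start in kb along the direction of transcription on the x axis (for Fosl1 from its lower-coordinate end). Grey bars are genes, coloured bars are fasting-enriched regions drawn to scale, and the number above each is its log-LR. Regions lie inside Jun and Junb, upstream of Junb and Fosl2, and beyond Fosl1, while Jund, Fos and Fosb have none within 10 kb.

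The promoter sequences below, of 250 bases before and 50 bases from the annotated start, show what the regions lie around. They are RefSeq sequences of build GRCm38.p6, the build called mm10, written 5′ to 3′ on the strand of the gene. Jun is shown because both of its regions lie downstream, Junb because regions lie on either side, Fosl2 because its regions lie upstream, and Fos as the family member without a region. Capitals mark exact matches, on either strand, to the cyclic AMP response element TGACGTCA or its first part TGACG, the AP-1 site TGANTCA, the sites of the Jun promoter TGACATCA and TTACCTCA, or the TATA box TATAAA. The windows are chr4:95052173-95052472 on the minus strand for Jun, chr8:84978699-84978998 on the minus strand for Junb, chr5:32136222-32136521 on the plus strand for Fosl2 and chr12:85473640-85473939 on the plus strand for Fos.
Jun: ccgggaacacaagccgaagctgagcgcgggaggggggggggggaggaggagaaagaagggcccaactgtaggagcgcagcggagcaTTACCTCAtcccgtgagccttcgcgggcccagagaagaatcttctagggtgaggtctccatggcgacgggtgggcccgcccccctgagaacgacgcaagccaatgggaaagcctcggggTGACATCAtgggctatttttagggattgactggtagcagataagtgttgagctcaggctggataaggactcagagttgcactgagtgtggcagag
Junb: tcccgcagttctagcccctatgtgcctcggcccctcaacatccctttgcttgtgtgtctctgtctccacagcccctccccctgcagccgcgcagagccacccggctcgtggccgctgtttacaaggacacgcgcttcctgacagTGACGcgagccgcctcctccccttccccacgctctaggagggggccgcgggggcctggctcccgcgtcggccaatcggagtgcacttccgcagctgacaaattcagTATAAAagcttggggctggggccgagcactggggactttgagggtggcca
Fosl2: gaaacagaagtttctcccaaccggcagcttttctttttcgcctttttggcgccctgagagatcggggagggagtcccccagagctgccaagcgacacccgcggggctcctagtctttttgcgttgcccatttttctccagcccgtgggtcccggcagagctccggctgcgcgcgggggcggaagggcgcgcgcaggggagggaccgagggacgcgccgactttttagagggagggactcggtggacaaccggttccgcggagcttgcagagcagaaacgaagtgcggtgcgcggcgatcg
Fos: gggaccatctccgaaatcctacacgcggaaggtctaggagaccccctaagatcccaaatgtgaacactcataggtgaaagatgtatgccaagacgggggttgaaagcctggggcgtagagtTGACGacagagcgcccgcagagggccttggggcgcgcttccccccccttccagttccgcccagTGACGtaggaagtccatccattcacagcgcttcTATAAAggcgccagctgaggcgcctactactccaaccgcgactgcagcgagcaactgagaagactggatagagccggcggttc

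None (0) of the fasting-enriched regions touched these 4 windows, nor those of Fosb and Jund. The nearest region was 1265 bp from the Jun window, 390 bp from the Junb window and 656 bp from the Fosl2 window. The letters of the windows differ among the family. The Jun promoter holds TTACCTCA from 164 bases and TGACATCA from 45 bases before the start, sites known to bind Jun and ATF dimers. By count, 0.697% and 3.86% of the first-listed promoters of 17492 protein-coding genes hold these letters. The Fos promoter holds TGACG from 129 and 66 bases before the start, of which the nearer belongs to its well-known calcium and cyclic AMP response element, and a TATA box from 33 bases before. The Junb promoter holds TGACG from 106 bases before the start and TATAAA from the annotated start itself, and the Fosb promoter holds TGACG from 60 bases before. TGACG is in 23.8% and TATAAA in 13.3% of all promoters of this length. The full TGACGTCA, in 2.34% of promoters, and TGANTCA, in 7.08%, are in none (0) of the 6 member windows. The Fosl2 and Jund windows have no match to any of these letters. Matches are descriptions of the windows and were not tied to the regions. Letters outside the windows, or at other starts, were not searched.

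The Jun regions sat deep in the gene and not at its start. Jun encodes c-Jun, the partner of c-Fos in the AP-1 dimer first described, and lies at chromosome 4, 95049036 to 95052222, on the minus strand. One region, at 95049929 to 95050117, is 189 bp wide and had a log-LR of 7.24, the highest of the family. It ranked 1311 of 8404 fasted regions, within the top 15.6%. The other, at 95050735 to 95050908, is 174 bp wide and had a log-LR of 3.71, rank 7595. They lay 2105 to 2293 bp and 1314 to 1487 bp downstream of the start, with 617 bp between them. Jun is an intronless gene, so both lie in its exon. The stronger region is 893 bp from the 3′ end, and neither comes within 1 kb of the start. A region within 1 kb of the 3′ end and none within 1 kb of the start was found for 0.515% of the 17492 protein-coding genes with a strand in the RefSeq promoter table, and Jun is the 1 such gene of the 6 members with a strand. This class was defined after the Jun regions were seen, so the share is a description of how many genes share the placement.

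Junb, whose product is often a weaker activator than that of Jun and can restrain it, was the member with the most regions. The gene lies at chromosome 8, 84976909 to 84978748, on the minus strand, and at 1840 bp is the shortest of the 7. Inside it, one region at 84978073 to 84978309 was 439 to 675 bp downstream of the start, with a log-LR of 4.01. The next, at 84977653 to 84977776, was 972 to 1095 bp downstream, with a log-LR of 4.06. The third region was upstream, at 84979629 to 84979752, 881 to 1004 bp before the start, with a log-LR of 4.41. Thus regions flank the promoter of Junb, and their log-LR values lie close together. Of all protein-coding genes 1.39% had 3 or more regions inside or within 10 kb, and Junb was the 1 such gene of the 7. The limit of 3 is Junb's own count, a class defined after its regions were seen, so the share is a description only. The inner regions of Junb lie 296 bp apart and were counted separately. With regions within 1 kb merged, they would become 1 region. The upstream region, 1319 bp from the nearer of them, would stay apart, so Junb would fall below 3. The class was not recounted that way over all genes. The nearest protein-coding neighbours, Prdx2 at 2098 bp and Hook2 at 10028 bp, had no (0) region inside them.

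As listed, without merging of close regions, Jun and Junb stood among few genes of their size with several regions inside. Of 3553 protein-coding genes no longer than Jun, 16 (0.450%) had 2 or more regions overlapping the gene. Jun and Junb are 2 of these 16, a class defined after their regions were seen. The 2 inner regions lie 617 bp apart in Jun and 296 bp apart in Junb. With regions within 1 kb merged, each pair would become 1 region, so neither gene would stay in the class. It was not recounted that way over all genes. Of the 16 genes, 8 have provisional names alone. The remaining genes besides Jun and Junb, named here after their values were seen, are Egr4, Ier2, Phlda1, Rhob, Borcs6 and Ckb. Egr4 and Ier2 are immediate early genes, that is, genes induced by a stimulus without new protein synthesis. Their highest log-LR values were 5.70 for Egr4 and 5.27 for Ier2, against 7.24 for Jun and 4.06 for Junb inside the gene. Rhob, a growth-factor-inducible small GTPase gene, had 7.22, and Phlda1 had 5.28. Ckb, the brain creatine kinase gene, had 7.62, and Borcs6, a gene of lysosome positioning, had 5.62.

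Jund, which encodes the Jun subunit with steadier expression, had no region inside or within 10 kb. It lies at chromosome 8, 70697739 to 70700616, on the plus strand. The nearest region was 54.2 kb away, at 70754840 to 70755162 in Rab3a, a synaptic vesicle gene, with a log-LR of 6.18. Among all protein-coding genes 55.2% had their nearest region farther away than that. Its neighbours Lsm4 and Iqcn had none (0) within 10 kb.

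Fos and Fosb, the members best known as markers of neuronal activity, were the farthest of the 7 from any region. Fos lies at chromosome 12, 85473890 to 85477274, on the plus strand, with no region within 100 kb. The nearest was 122 kb away, at 85598916 to 85599215, with a log-LR of 5.04, and 35.5% of protein-coding genes were farther from a region. It falls on a start of Jdp2, the next protein-coding gene, whose product dimerises with Jun and represses AP-1 sites. Fosb lies at chromosome 7, 19302696 to 19310118, on the minus strand, and its nearest region was 156 kb away, in Qpctl, with a log-LR of 5.89. For 29.0% of genes the nearest region was farther still. Its neighbours Rtn2 and Ercc1 had none (0) within 10 kb.

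The Jdp2 region, the nearest to Fos, reaches into a promoter window, so part of its own sequence can be shown. It runs from 189 bases before a start of Jdp2 in the RefSeq promoter table to 110 bases after it. Of its 300 bp, 239 bases fall in the window chr12:85598855-85599154, plus strand, and are in capitals.
Jdp2: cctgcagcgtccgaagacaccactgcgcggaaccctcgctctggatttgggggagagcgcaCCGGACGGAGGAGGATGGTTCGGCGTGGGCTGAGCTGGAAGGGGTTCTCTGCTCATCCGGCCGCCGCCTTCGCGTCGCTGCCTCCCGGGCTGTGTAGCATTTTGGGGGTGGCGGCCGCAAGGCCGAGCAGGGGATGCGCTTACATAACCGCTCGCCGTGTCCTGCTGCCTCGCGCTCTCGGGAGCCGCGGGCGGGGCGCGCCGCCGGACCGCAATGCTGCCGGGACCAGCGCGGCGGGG

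The window holds 39 CpG dinucleotides. Members' windows held 15 for Jun, 21 for Junb and 32 for Fosl2, against 20 for Fos, 25 for Fosb and 3 for Jund. Across the table the median was 25 CpG (quartiles 18 and 33) in 2317 promoters of genes with a region within 1 kb of a start. It was 10 (quartiles 3 and 22) in 15175 promoters of genes without one. The Fos and Junb windows fall between the quartiles of both groups. Fosb and Fosl2 fall within those of genes with a region only, and Jun within those of genes without one only. The Jund window is at the lower quartile of genes without one. Each window surrounds 1 annotated start of its gene, the first listed. CpG elsewhere in the gene was not counted. Whether CpG content bears on the regions was not tested.

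Fosl2 and Fosl1 had regions outside the gene. Fosl2, which encodes Fra-2, a Fos protein without the strong activation domain of Fos, lies at chromosome 5, 32136472 to 32157840, on the plus strand. One region, at 32135431 to 32135566, lay 906 to 1041 bp before its start with a log-LR of 4.19. The other, at 32133565 to 32133780, lay 2692 to 2907 bp before the start with a log-LR of 3.65, the lowest of the family. Neither overlapped an annotated gene. The nearest protein-coding neighbours were Babam2 at 51.5 kb and Plb1 at 74.9 kb, so the Fosl2 start was the nearest protein-coding start to both.

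The Fosl1 region belonged by position to a neighbour. Fosl1, which encodes Fra-1, lies at chromosome 19, 5447698 to 5455938, and the tables used here give it no strand. Its region, at 5457145 to 5457313 with a log-LR of 4.56, lay 1207 bp beyond the higher-coordinate end. It is inside Ccdc85b, a minus-strand gene that overlaps Fosl1 by 2776 bp, 250 to 418 bp downstream of the Ccdc85b start. The protein-coding gene Fibp begins 4.66 kb beyond Fosl1 and held none (0). Hence Jun, Junb and Fosl2 are the members with a region outside any other gene, a rule that was not counted over all protein-coding genes.

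Within 1 kb of either end, a region was found for 3 of the 7 genes, against 11.9% of protein-coding genes. With strand taken into account, 2 of the 6 members that have one, Junb and Fosl2, had a region within 1 kb of the start, against 13.2% of genes. At the 3′ end it was also 2 of 6, Jun and Junb, against 0.863% of all genes with a strand. Both genes are short, and 2.15% of genes no longer than Jun had a region within 1 kb of the 3′ end. The Junb region counted there, 744 bp from the 3′ end, also reaches within 1 kb of the start.

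Regions of Jun, Junb and Fosl2 all had their centre within 3 kb of the gene's start, and they were set beside the other regions that near to a start. Of the 8404 fasted regions, 2507 had their centre within 3 kb of a protein-coding start. Of these 2507, 60.7% (95% Wilson interval 58.8 to 62.6) were centred up to 500 bp downstream, and 27.4% (25.7 to 29.2) were more than 500 bp from the start on either side. The limit of 500 bp was chosen after the values were seen. The 7 regions of Jun, Junb and Fosl2 were more than 500 bp away, while the Fosl1 region was centred 334 bp downstream of the Ccdc85b start. Of the 7, the Junb region centred 557 bp downstream was the closest to the gene's own start. It lies within 1 kb downstream, where 76.3% (74.6 to 77.9) of the 2507 were centred. The other inner Junb region and both Jun regions were centred 1 to 3 kb downstream, where 6.62% (5.71 to 7.66) lay. On the upstream side, 1 region each of Junb and Fosl2 was centred within 1 kb of the start, where 14.0% (12.7 to 15.4) of the 2507 lay. Both were more than 750 bp upstream, where 3.91% (3.22 to 4.74) lay, a limit set with their positions known. The other Fosl2 region was centred 1 to 3 kb upstream, where 3.15% (2.54 to 3.91) lay. These shares are descriptions over regions, which are not replicates of mice, and the intervals cover counting error only.

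**Figure D2:**
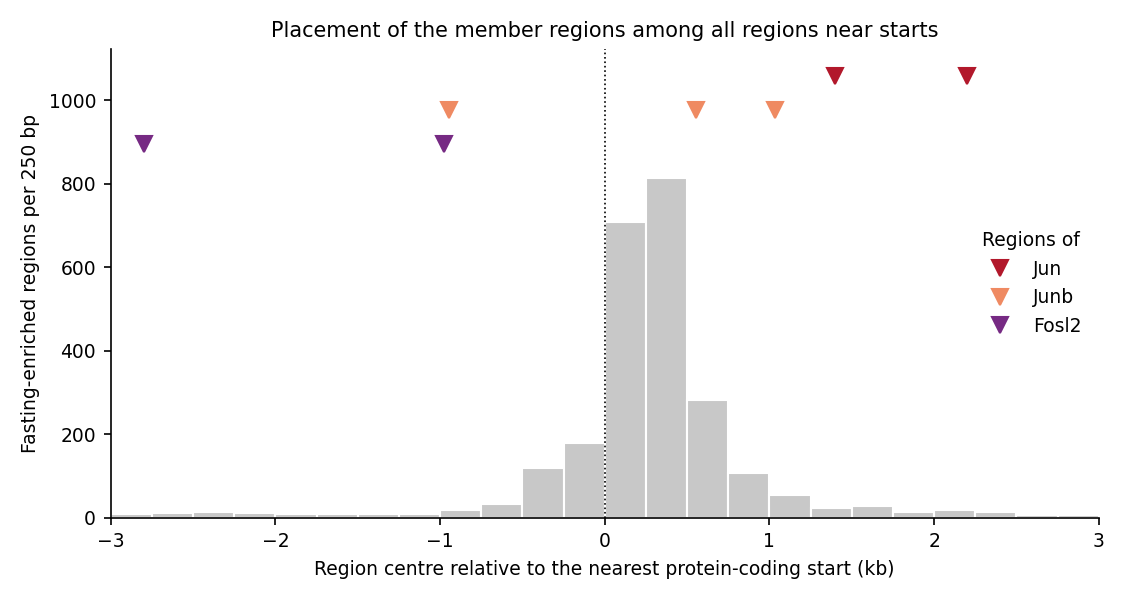
Number of fasting-enriched regions per 250 bp (grey bars) by the distance of their centre from the nearest protein-coding start, in kb, upstream to the left. Triangles mark the 2 regions of Jun, the 3 of Junb and the 2 of Fosl2, all outside the 500 bp downstream of the start that hold 60.7% of the 2507 regions plotted. The Fosl1 region, whose nearest start is that of Ccdc85b, has no triangle.

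By the authors' value most regions of the family ranked low. Of the 8 regions, 7 had a log-LR under the median of all fasted regions, 4.96, and the Jun region with 7.24 was the 1 above the upper quartile of 6.28. The family's median was 4.12, against 4.96 for the whole list, whose lower quartile was 4.16. Widths ran from 124 to 237 bp, and 6 of the 8 were narrower than the list's median of 205 bp. With regions of a log-LR of at least 5 counted alone, Jun was the 1 member left of 7, against 12.6% of all protein-coding genes, a share near the background.

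**Figure D3:**
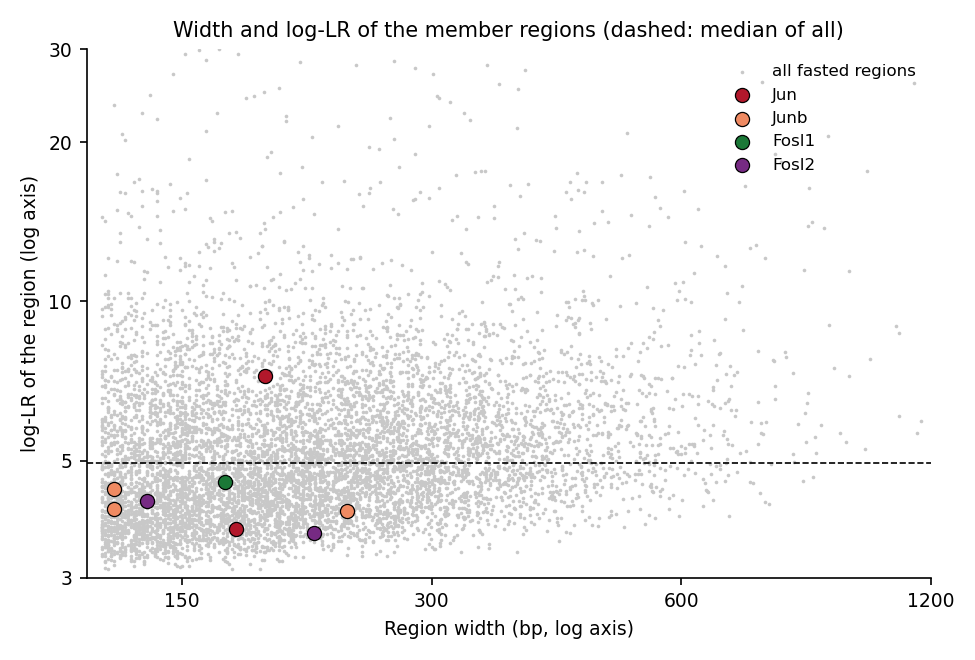
Width in bp and log-LR of each fasting-enriched region, both on log axes, with the 8 regions of the Fos and Jun genes in colour over all regions in grey. The dashed line is the median log-LR of all, 4.96, and 164 regions with a log-LR over 30 or a width over 1200 bp fall outside the axes. One Jun region lies above the line, and the other 7 lie below it.

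Genes that act with AP-1 were counted by the same rule, inside or within 10 kb. Of 14 further dimer partners 4 had a region. They were Atf2 (log-LR 6.31, 252 to 580 bp downstream of the start), Mafg (5.99), Jdp2 (5.04) and Atf7 (3.59, a region 7257 bp from the gene and inside Tarbp2). Atf3, a partner gene induced by stress, and Batf, Batf2 and Batf3 had none (0). These 4 of 14 are 28.6%, near the 23.3% of all protein-coding genes.

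Among 16 genes of kinases and scaffolds that act on AP-1, 8 had a region. The highest values were 8.74 for Map2k2, a kinase that activates ERK, with a region 9734 bp from the gene, and 8.02 for Mapk8ip3, a JNK scaffold gene, with a region inside Mrps34. Mapk8ip1, another JNK scaffold gene, had a region inside the gene with 7.62. Mapk8, the gene of JNK1, which phosphorylates Jun, had 5.90 at 110 to 345 bp downstream of its start. Of 19 activators of Fos and Jun transcription 9 had a region. The 4 highest were Mef2d (9.77, 2955 bp from the gene), Mrtfb, a coactivator of serum response factor (7.68), the acetyltransferase gene Crebbp (7.05) and Mef2a (5.70). Of 11 genes of turnover and coregulation 5 had a region, led by the deacetylase gene Hdac3 (6.48, in Rell2), and by Cop1 (4.48) and Fbxw7 (4.10), both of ubiquitin ligases that act on Jun, and Smarcb1 (4.27). The shares of these 3 lists were 50%, 47.4% and 45.5%. By median their genes are long, at 52.3, 71.4 and 88.1 kb, against 17.2 kb for all protein-coding genes, though each list holds shorter genes. Of protein-coding genes of 50 kb or more, a limit chosen after the counts were seen, 37.6% had a region. This share is not matched to the lengths in the lists, and whether length bears on their shares was not tested.

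Genes known as AP-1 targets in neurons had a region in 3 of 13, or 23.1%, against the same 23.3%. They were Camk2a (9.49), Cdk5 (7.14, a region inside Slc4a2) and the AMPA receptor gene Gria2 (4.71). The opioid precursor genes Pdyn and Penk had none (0). Marker genes of cortical neurons had a region in 2 of 10, Syt1 (6.45) and Tbr1 (4.01), and glia markers in 3 of 12, Aldh1l1 (8.50, in Slc41a3), Mbp (6.61) and Cnp (6.52). Markers of tissues outside the dissection had one in 0 of 12. By median these 12 genes are short, at 5.50 kb against 17.2 kb for all protein-coding genes. Whether length bears on their count was not tested. A region list of differences does not show which cell types were present.

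**Figure D4:**
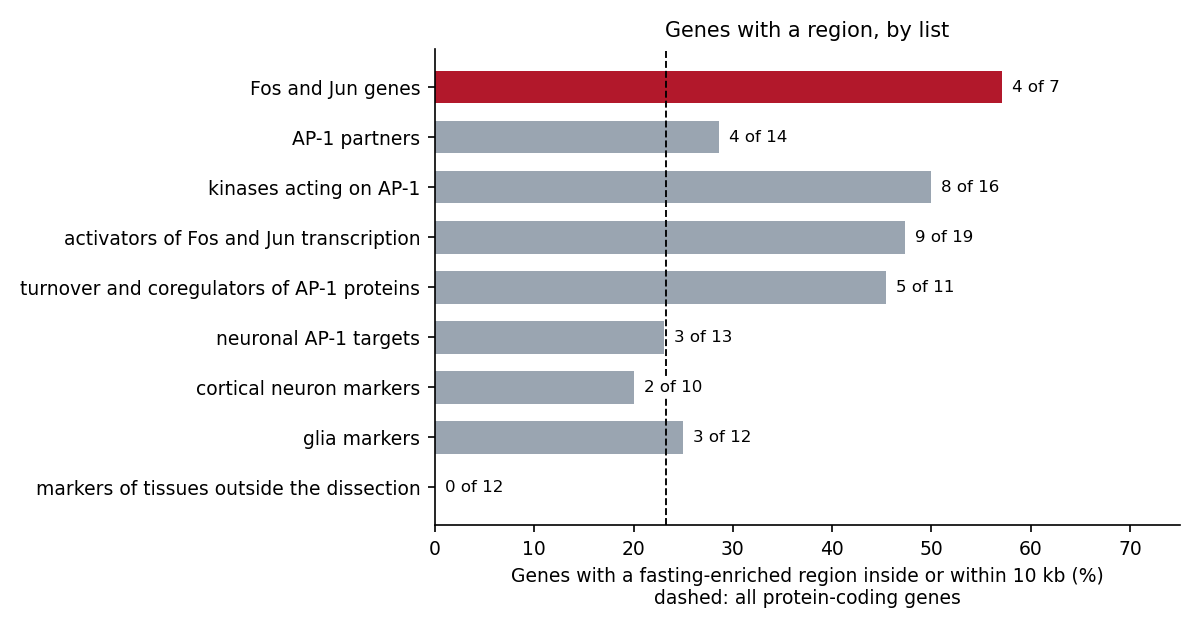
Percentage of genes with a fasting-enriched region inside or within 10 kb, for the 7 Fos and Jun genes (red, 4 of 7) and for the other gene lists (grey), with the counts beside the bars. The dashed line is the 23.3% of all protein-coding genes.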

How the data were processed

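H3K9bhb ChIP and input libraries of fasted and ad libitum fed mice, 4 of each per feeding state, stand behind 2 region lists that the authors deposited. The submitters' processing notes name Bowtie2, MACS2 and the build mm10, with no role or version. Per the file headers each region has a log-LR, used here as the authors' score to describe and rank regions within a list. Its log base, its limit, the depth scaling and any pooling of libraries are details not given in the sources used. A difference in depth or immunoprecipitation yield between the feeding states would move the number of regions.

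Starts were read as counted from 0, which makes the smallest width 120 bp, and coordinates are printed from 1. Gene positions are those of a RefSeq table of GRCm38.p6. Strand and start sites came from the RefSeq promoter table, which matched 6 members (not Fosl1) and 17492 protein-coding genes. Where a gene has several starts, any was used for the counts and shares near starts and for the placement about starts. The first listed was used for the members' printed distances from the start and for motifs. No region sequence outside these windows was used here.

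The named genes were the 7 members, their nearest protein-coding neighbours, genes that their regions overlap, and up to 4 genes of each of 8 lists by highest log-LR. List genes named as having no region, and the other short genes with several regions, were chosen after their values were seen. All 107 list entries matched. Members, lists and motifs were chosen with earlier results of these data known. A planned comparison of protein sequences was not run. Other motifs were searched too. The CArG box was in 1.54% of promoters and in no (0) member window, the CCAAT box, of those letters, in 39.0% (Jun and Junb among members), the GC box GGGCGG in 46.3% (Jun, Fos, Fosb and Fosl2) and the Ets core GGAAG in 72.1% (all 6 members with a window but Jun). Counting was checked on simulated data, with a region placed near each of 200 genes. Scripts ran in Python 3.11.15 with pandas 2.3.3, numpy 2.4.6, matplotlib 3.10.9 and scipy 1.17.1.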

Additional observations from a re-analysis of the deposited data

How the results depend on the processing

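The count of members with a fasted region, 4 as reported, was 2 with overlap of the gene required (16.4% of all protein-coding genes), 1 with log-LR limits of 5 (12.6%) and 0 with 10 (0.900%). Windows of 1 kb gave 3 (18.1%), and those of 3 kb (19.3%) and 50 kb (43.0%) gave 4, which at 50 kb is nearer to the share of all genes. It was 4 under the 3 remaining settings. The count at an end, 3 as reported, was 1 with a window of 500 bp (9.55% of all protein-coding genes), 1 with the limit of 5 (5.90%) and 0 with 10 (0.183%). The share of all genes with a region, 23.3%, was 15.2% over all annotated genes, 24.3% over autosomal protein-coding genes, 19.1% within the members' length range and, in a setting chosen after seeing the data, 37.6% for genes of 50 kb or more. With a window of 50 kb, where the share of all protein-coding genes was 43.0%, the counts were 7 of 14 AP-1 partners, 13 of 16 kinases, 5 of 13 targets, 5 of 10 cortical neuron markers, 7 of 12 glia markers and 3 of 12 markers of other tissues. Activators gave 10 of 19, and turnover and coregulators stayed at 5 of 11 (45.5%), near that share. With the limit of 5, the count was 1 for turnover and coregulators and 1 for cortical neuron markers, and with 10 it was 0 for each list. Requiring the given strand lowered the share of promoters with TGACG to 14.5%, TGACATCA to 2.39% and TTACCTCA to 0.360%. The log-LR limits remove regions by construction, and wider windows add them. No paired analysis was possible because each region has a single value for all libraries, and leaving out replicates was not run for the same reason.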
